A study of Mus musculus with 7 samples.

Results

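Growth factors secreted within the heart were compared between mice carrying a cardiac Nrf2 transgene and their non-transgenic controls. The 10 genes named in advance were Gdf15, Fgf21, Fgf1, Mstn, Igf1, Vegfa, Vegfb, Angpt1, Fstl1 and Nrg1, and they were found by gene symbol. Of these, 9 matched an entry of the count table, out of 14641 genes in all, and Fgf21 was not analysed here. The libraries came from whole heart lysate of male C57BL/6J mice. There were 4 libraries of non-transgenic (NTG) hearts, replicates 1 to 4, and 3 libraries of hearts in which the αMHC promoter drives full-length mouse Nrf2 (mNrf2-TG), replicates 17 to 19. The αMHC promoter directs expression to cardiomyocytes, not to the endothelial, mural or stromal cells that also secrete these factors. Expression by cell type was not measured in these whole heart libraries. The mNrf2-TG labels give 6 months of age, the study design 7 to 8 months and the methods 6 to 7 months, and the NTG labels give no age.

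These factors act on neighbouring cells, or through the blood, by way of receptors on the cell surface. VEGF and angiopoietin ligands govern the growth and quiescence of coronary vessels, fibroblast and insulin-like growth factors carry growth and survival signals, and neuregulin links endothelium to cardiomyocytes. GDF15 and myostatin belong to the TGF-β superfamily and act on appetite and on muscle mass, respectively. Nrf2 is a transcription factor that induces antioxidant genes through the antioxidant response element (ARE).

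The libraries held 6534684 to 8405857 counted reads on the listed genes. Nfe2l2, the gene of Nrf2, served as the check of the labels, at 729 to 1392 counts in NTG against 10912 to 12839 in mNrf2-TG (where reads of the transgene and of the endogenous gene cannot be told apart, Log2FC 3.36, adjusted p = 2.96e-06). NTG replicate 3 stood apart from its group: 5.66% of the 12069 genes with a mean count of at least 10 lay more than 1.5-fold outside the range of the other NTG libraries, against 1.17% to 2.40% for the other NTG libraries. Where a call or a level of the growth factor genes changed without it, the value without it is also given. The 6 cardiomyocyte markers summed to 406639 to 491837 normalized counts in NTG against 351695 to 376585 in mNrf2-TG. Of these markers 2 were called lower, against 8.73% of all genes tested. The number called was 3 without NTG replicate 3 and 1 without NTG replicate 1. Of 2 atrial markers tested, Myl7 was at 0 to 4 counts per library, and Myl4 was at 17 to 26 counts in NTG against 22 to 65 in mNrf2-TG (Log2FC 0.94 ± 0.32 SE, adjusted p = 0.069). Normalized counts below were scaled with TMM factors to the average library and are printed with their SD. Log2FC is the log2 fold change of mNrf2-TG over NTG, and adjusted p is from edgeR's quasi-likelihood test over 14637 genes, with the threshold at 0.05.

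Of the 9 growth factor genes, 2 passed the threshold, Angpt1 and Vegfa, and both were lower in mNrf2-TG. Over all genes tested, 17.2% passed in either direction and 8.73% passed as lower, so 2 of 9 is near the background. The median Log2FC of the 9 genes was -0.04, against 0.00 over all genes. Gdf15 had the highest Log2FC of the 9, 1.5, and Mstn the lowest, -1.67, and neither passed. Without NTG replicate 3, 4 of the 9 genes passed, namely Angpt1 and Fgf1 as lower and Gdf15 and Fstl1 as higher, and Vegfa did not. That fit called 2950 genes in total, against 2519 with all libraries. Without mNrf2-TG replicate 17 none of the 9 passed by edgeR, at a total of 1373 genes called. In each of the fits without NTG replicate 1, NTG replicate 4, mNrf2-TG replicate 18 or mNrf2-TG replicate 19, 1 of the 9 passed, which was Angpt1.

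**Figure D1:**
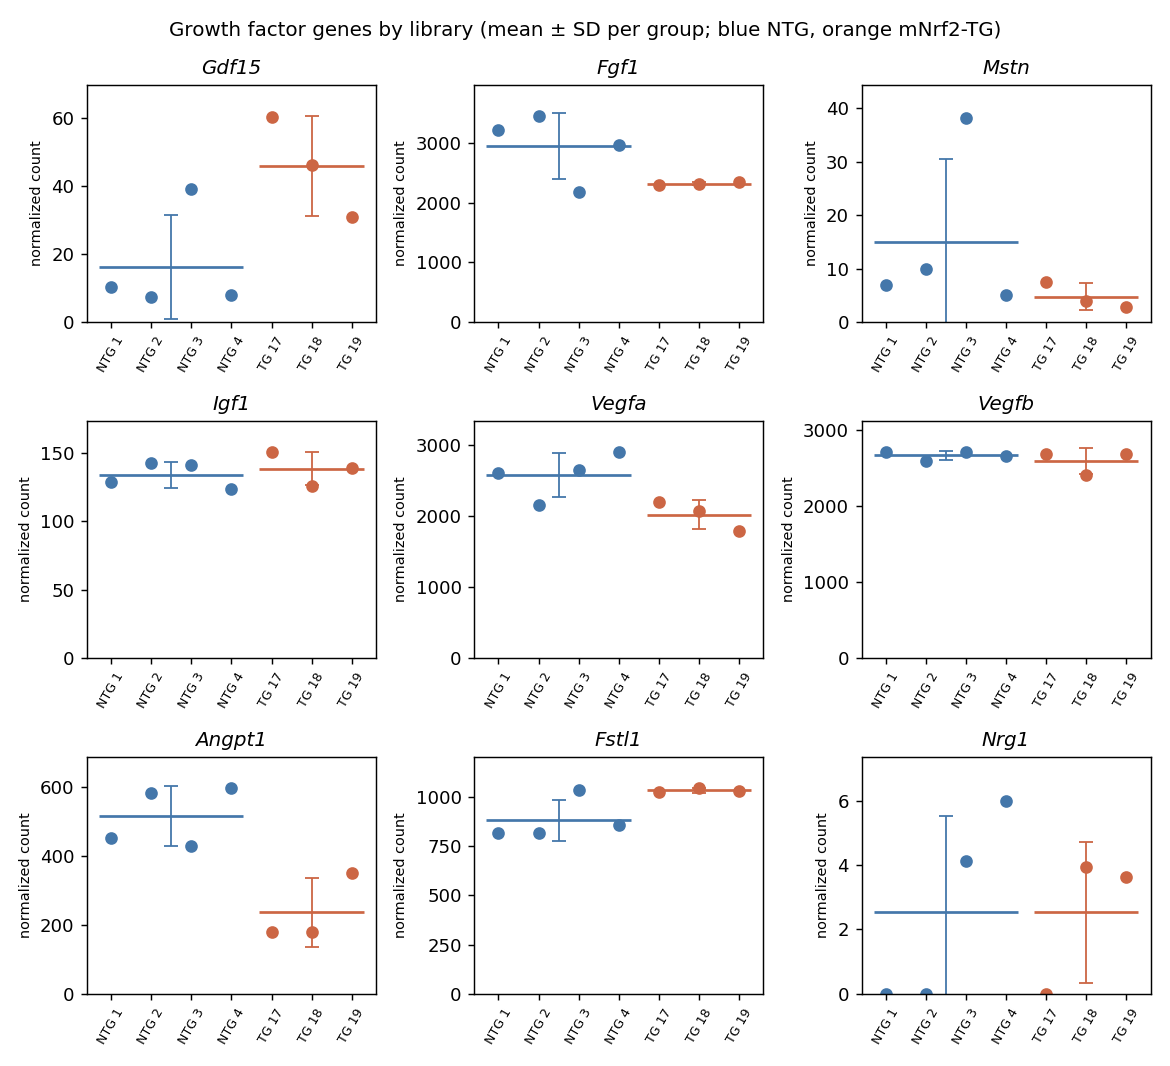
Normalized counts (vertical axes, starting at 0) of the 9 growth factor genes in each library (horizontal axes), with the mean as a line and the SD as an error bar for 4 NTG (blue) and 3 mNrf2-TG (orange) libraries. The groups are separate for Angpt1 alone, and NTG replicate 3 lies nearer to the mNrf2-TG libraries than to its own group for Gdf15, Fgf1 and Fstl1.

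Angpt1 encodes angiopoietin-1, a ligand made by mural cells and cardiomyocytes that keeps vessels quiescent through the receptor Tek (Tie2). It is a gene of the minus strand (Entrez gene 11600, chromosome 15, 42424723 to 42676977). It had 393, 646, 414 and 600 counts in NTG replicates 1 to 4, and 165, 182 and 386 counts in mNrf2-TG replicates 17 to 19. All mNrf2-TG libraries were below all NTG libraries after normalization, and mNrf2-TG replicate 19 lay closest to NTG. Normalized counts fell from 514 ± 87.5 (n = 4) to 236 ± 99.3 (n = 3), to 45.8% of the NTG mean, with Log2FC -1.12 ± 0.24 SE (adjusted p = 0.0111). The call was lost without mNrf2-TG replicate 17 (Log2FC -0.96, adjusted p = 0.0502), and the Log2FC was -1.52 without mNrf2-TG replicate 19. Among all genes tested, the groups did not overlap for 29.7%, and among the 9 growth factor genes this held for Angpt1 alone. Over the 7 libraries, the genes of the 9666 ranked whose log2 CPM followed Angpt1 most closely were Mrpl35, Rabggtb, N4bp3, Chml and Thoc2, with Pearson r from 0.98 to 0.99. This is a description over 7 points that share the group difference, and 70 genes had an r above 0.95.

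The other angiopoietin genes were at low counts. Angpt2, whose product mostly opposes angiopoietin-1 at Tek, ranged over 45 to 73 counts in NTG, and over 37 to 58 in mNrf2-TG (Log2FC -0.30 ± 0.25 SE, adjusted p = 0.454). The count ratio of Angpt2 to Angpt1 within a library was 0.187, 0.0998, 0.11 and 0.0941 in NTG replicates 1 to 4 and 0.329, 0.321 and 0.097 in mNrf2-TG replicates 17 to 19. It was thus higher in mNrf2-TG replicates 17 and 18 than in any NTG library and within the NTG range in mNrf2-TG replicate 19. The difference did not pass an exact permutation test over the 35 assignments of libraries to groups (two-sided, p = 0.229, adjusted p = 0.229 over 3 ratios), in which no p can be below 0.0286.

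Of the angiopoietin receptor genes, Tek stayed level, at 535 ± 24.5 normalized counts in NTG against 528 ± 36.7 in mNrf2-TG (Log2FC -0.02 ± 0.08 SE, adjusted p = 0.904). Ptprb encodes VE-PTP, an endothelial phosphatase that dampens Tek signalling. It fell from a mean of 2136 ± 246 to 1586 ± 181 in normalized counts, with Log2FC -0.43 ± 0.11 SE (adjusted p = 0.0223). The call of Ptprb was lost without mNrf2-TG replicate 17 (adjusted p = 0.0924) and without mNrf2-TG replicate 18 (adjusted p = 0.0781). Thus 1 of 3 genes on the receptor list was lower and 0 were higher, against 17.2% of all genes called in either direction.

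Vegfa and Vegfb are the most abundant vascular ligands of the set and differ in their receptors. VEGF-A acts on Kdr (VEGFR2), the main receptor of angiogenesis, and is also bound by Flt1 (VEGFR1), whereas VEGF-B binds Flt1. Their upstream sequences are shown because the transgene encodes a factor that binds the ARE, and because 1 of these related genes passed the threshold and the other did not. RefSeq lists 2 start sites for Vegfa and 1 for Vegfb. The 250 bases before the outermost start site (GRCm38.p6) are given 5′ to 3′ on the strand of the gene, from chr17:46032378-46032627 for Vegfa and chr19:6987652-6987901 for Vegfb, both on the minus strand. Capitals mark matches to the ARE core, searched on both strands as TGACNNNGC and TGAGNNNGC.
Vegfa: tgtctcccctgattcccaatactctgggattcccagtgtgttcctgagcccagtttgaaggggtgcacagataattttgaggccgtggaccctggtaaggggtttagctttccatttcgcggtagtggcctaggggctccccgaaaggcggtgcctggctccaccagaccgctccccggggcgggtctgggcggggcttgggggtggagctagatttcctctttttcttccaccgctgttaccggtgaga
Vegfb: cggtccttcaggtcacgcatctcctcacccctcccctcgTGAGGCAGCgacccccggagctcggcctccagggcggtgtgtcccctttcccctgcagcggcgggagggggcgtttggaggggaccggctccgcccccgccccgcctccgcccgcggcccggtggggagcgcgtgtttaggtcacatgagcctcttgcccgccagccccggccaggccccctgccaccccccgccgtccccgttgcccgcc
The Vegfb window held 1 match, TGAGGCAGC, that starts at -211 from the start site, and the Vegfa window held none. At least 1 of these 2 patterns occurs in 23.0% of the 32851 RefSeq windows of this length, so a match in 1 window is not rare. No match says only that these letters are absent from this window. The hypoxia element core ACGTG, found in 16.6% of windows, was in neither printed window, and the window of the second Vegfa start site, inside the gene, held 1 match at -211 and no ARE pattern.

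Vegfa had 2262, 2395, 2563 and 2915 counts in NTG replicates 1 to 4, and 2034, 2105 and 1967 counts in mNrf2-TG replicates 17 to 19. After normalization NTG replicate 2 fell within the range of mNrf2-TG, and the other NTG libraries were above it. Normalized counts of Vegfa (Entrez gene 22339, chromosome 17, 46016993 to 46032369) fell from 2576 ± 310.1 (n = 4) to 2016 ± 208 (n = 3), with Log2FC -0.35 ± 0.11 SE (adjusted p = 0.049). This call was marginal. It was kept without NTG replicate 2 (adjusted p = 0.0246) and lost without NTG replicate 1 (0.105), NTG replicate 3 (0.0591), NTG replicate 4 (0.105), mNrf2-TG replicate 17 (0.0696), mNrf2-TG replicate 18 (0.0988) and mNrf2-TG replicate 19 (0.164). It was also lost with scaling by the library total alone (0.061) and with filterByExpr as the filter (0.0503).

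Vegfb (Entrez gene 22340, chromosome 19, 6982473 to 6987651, minus strand) had 2361, 2874, 2624 and 2663 counts in NTG and 2495, 2437 and 2962 in mNrf2-TG. The groups overlapped, at 2665 ± 58.8 and 2592 ± 165 normalized counts, with Log2FC -0.04 ± 0.07 SE (adjusted p = 0.725). The ratio of Vegfa to Vegfb counts ranged from 0.833 to 1.09 in NTG and from 0.664 to 0.864 in mNrf2-TG, and the ranges overlapped. This ratio, which does not depend on how the libraries are scaled, differed by a log2 of -0.31 between the groups (exact permutation test, two-sided, p = 0.0857, adjusted p = 0.229). The other VEGF ligands Pgf, Vegfc and Vegfd were not called (0 of 3 genes, against 17.2% of all genes called in either direction). The 50-base reads were counted per gene, so the splice forms of Vegfa were not told apart.

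The VEGF receptors moved in opposite directions. Flt1, which binds both VEGF-A and VEGF-B, had 1460, 2082, 1681 and 1421 counts in NTG and 1098, 1233 and 1037 in mNrf2-TG. After normalization every mNrf2-TG library was below every NTG library. Flt1 fell from a mean of 1675 ± 192 to 1113 ± 149 in normalized counts, with Log2FC -0.59 ± 0.12 SE (adjusted p = 0.00831), and was called under all 14 alternatives. Kdr rose from a mean of 1388 ± 139.8 to 1815 ± 297 in normalized counts, with overlap between the groups and Log2FC 0.39 ± 0.12 SE (adjusted p = 0.048). The call of Kdr was lost without NTG replicate 1 (0.11), NTG replicate 2 (0.109), NTG replicate 4 (0.0768), mNrf2-TG replicate 17 (0.16) and mNrf2-TG replicate 18 (0.161), and in limma-voom (0.052). Thus 1 of 5 VEGF receptor genes was higher and 1 lower, against 17.2% of all genes called in either direction. Flt4, Nrp1 and Nrp2 were not called.

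Of 5 endothelial markers, 3 (Pecam1, Cdh5 and Esam) were lower and 0 higher, against 8.73% of all genes called lower. The number called lower was 2 without NTG replicate 2, mNrf2-TG replicate 17 or mNrf2-TG replicate 18. Emcn (Log2FC -0.46, adjusted p = 0.0828) and Egfl7 (Log2FC 0.04, adjusted p = 0.842) were not called. The summed normalized count of the 5 was 4819 to 5373 in NTG and 3821 to 4004 in mNrf2-TG. Of 5 pericyte and smooth muscle markers, 1 (Rgs5) was lower and 0 higher, near the 17.2% called over all genes, with sums of 2727 to 3259 in NTG and 2275 to 2579 in mNrf2-TG. The number of these called lower was 0 without NTG replicate 1 or mNrf2-TG replicate 17, and 2 without NTG replicate 4. In whole heart lysate, fewer cells of a type cannot be told apart from less RNA per cell. The part of these markers in the changes of Angpt1, Vegfa, Flt1 and Ptprb was not tested. Among receptor genes expressed in endothelium, Flt1 was lower, Tek was level and Kdr was higher with a marginal call. Their relation to the endothelial sum was not tested.

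**Figure D2:**
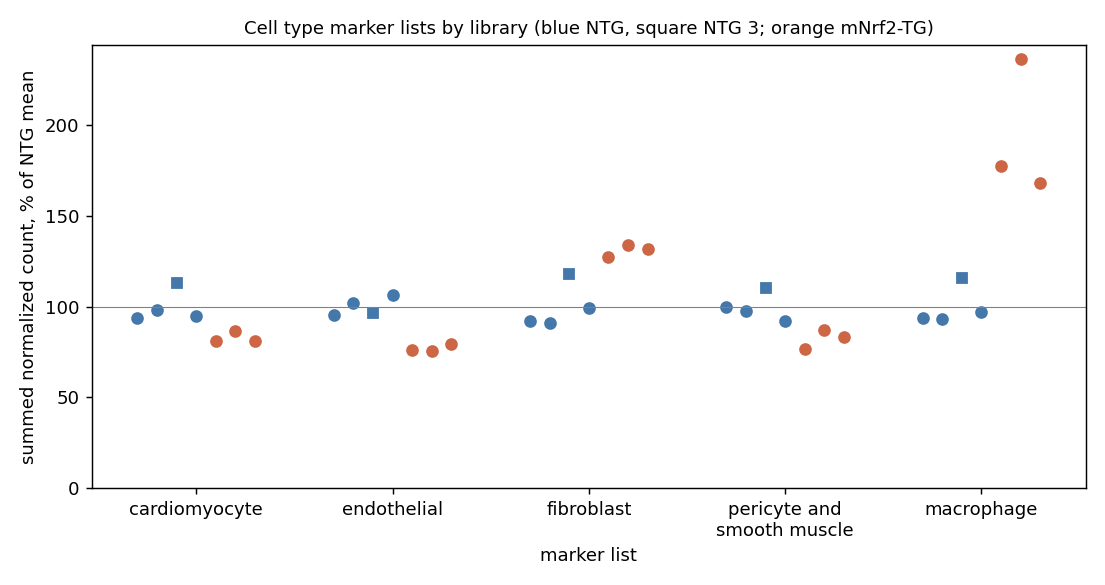
Summed normalized counts of 5 marker lists in each library, as percent of the NTG mean (vertical axis, from 0), with NTG in blue (a square marks NTG replicate 3) and mNrf2-TG in orange. Cardiomyocyte, endothelial and mural sums are lower in all mNrf2-TG libraries, and fibroblast and macrophage sums are higher.

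Fgf1 encodes acidic fibroblast growth factor, which lacks a signal peptide for classical secretion, binds all FGF receptors and is abundant in the myocardium. Fgf1 (Entrez gene 14164, chromosome 18) had 2806, 3848, 2116 and 2985 counts in NTG and 2144, 2346 and 2589 in mNrf2-TG. NTG replicate 3 was the lowest library of all after normalization, at 2182, and the other NTG libraries, at 2973 to 3464, were above the mNrf2-TG libraries, which lay within 2307 to 2351. Over all libraries Fgf1 was not called, at 2961 ± 557 and 2323 ± 23.7 normalized counts (Log2FC -0.35 ± 0.13 SE, adjusted p = 0.1). Without NTG replicate 3 it passed, with a Log2FC of -0.47 (adjusted p = 0.00195). The whole span of Fgf1 lies within that of Arhgap26 on the other strand, and whether strand was used in counting is not given in the sources used here.

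Fgf21, a metabolic hormone that needs the co-receptor Klb, was not analysed here, and neither was Klb. Of the other 9 FGF ligand and binding genes tested, 1 was higher and 2 were lower. Over all genes 17.2% were called in either direction. Fgf16, a factor made by cardiomyocytes, had 120, 152, 103 and 153 counts in NTG and 50, 49 and 91 in mNrf2-TG. The groups did not overlap, and Fgf16 fell with Log2FC -1.11 ± 0.20 SE (adjusted p = 0.00584), called under all 14 alternatives. Fgf18 fell from a mean of 35.5 ± 7.64 to 14.8 ± 5.4 in normalized counts (Log2FC -1.24 ± 0.29 SE, adjusted p = 0.0188), and its call was lost without mNrf2-TG replicate 17 (adjusted p = 0.0606). Fgf10, a mesenchymal ligand, ranged over 1 to 4 counts in NTG, and over 6 to 11 in mNrf2-TG (Log2FC 1.91 ± 0.51 SE, adjusted p = 0.0295). At these counts its call was fragile, and was lost with DESeq2's Wald test (adjusted p = 0.0646) and without NTG replicate 1 (0.0744), mNrf2-TG replicate 17 (0.0961) or mNrf2-TG replicate 19 (0.0891).

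Among 6 FGF receptor genes tested, 1 rose and 0 fell, near the 17.2% called over all genes. Fgfrl1, a receptor without the tyrosine kinase domain, had 138, 156, 149 and 161 counts in NTG and 275, 296 and 304 in mNrf2-TG. Every mNrf2-TG library was above every NTG library, and the NTG libraries were close together. Fgfrl1 rose from a mean of 153 ± 9.02 to 288 ± 10.5 in normalized counts, Log2FC 0.91 ± 0.09 SE (adjusted p = 0.000225), and was called under all 14 alternatives. Fgfr1, the main kinase receptor here, was level at 314 ± 30.4 and 313 ± 20.7 normalized counts (Log2FC -0.00 ± 0.10 SE, adjusted p = 0.985), and Fgfr4 had 0 to 2 counts per library. Of 8 feedback genes of FGF signalling, 1 fell and 0 rose, against 17.2% of all genes called in either direction. The gene that fell was Spry4, an inhibitor of receptor tyrosine kinase signalling, with 141 ± 12.7 and 102 ± 13.5 normalized counts (Log2FC -0.47 ± 0.13 SE, adjusted p = 0.0306). Its call was lost without NTG replicate 1 (0.056), NTG replicate 2 (0.0705), mNrf2-TG replicate 18 (0.0816) or mNrf2-TG replicate 19 (0.11).

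Gdf15 encodes a stress-induced cytokine that acts through GFRAL in the hindbrain, and is a marker of cardiac stress. The gene lies on the minus strand (Entrez gene 23886, chromosome 8, 70629393 to 70632456). Its 250 bases before the outermost of 2 RefSeq start sites, chr8:70632457-70632706 (GRCm38.p6), are shown because Gdf15 had the highest Log2FC of the 9 genes.
Gdf15: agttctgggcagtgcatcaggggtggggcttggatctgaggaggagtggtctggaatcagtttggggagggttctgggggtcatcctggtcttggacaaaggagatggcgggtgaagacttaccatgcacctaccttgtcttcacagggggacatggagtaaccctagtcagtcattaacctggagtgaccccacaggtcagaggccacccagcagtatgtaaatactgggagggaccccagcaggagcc
There are no capitals because neither ARE pattern occurred in this window on either strand. The same held for TGATGNAA, the core of the element bound by ATF4 with C/EBP factors, which occurs in 3.45% of the windows. ACGTG was also absent from it, while the window of the second start site, inside the gene, held ACGTG at -82 and its overlapping reverse complement at -83. These are descriptions of letters in these windows, and elements further upstream were not searched.

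Gdf15 had 9, 8, 38 and 8 counts in NTG replicates 1 to 4, and 56, 47 and 34 counts in mNrf2-TG replicates 17 to 19. NTG replicate 3 reached the level of mNrf2-TG, and the other NTG libraries were near 8. Normalized counts were 16.2 ± 15.4 (n = 4) and 45.8 ± 14.7 (n = 3), with a Log2FC of 1.5 (standard error 0.51) and an adjusted p of 0.0724, so that Gdf15 did not pass in edgeR. Without NTG replicate 3 the Log2FC was 2.42 (adjusted p = 0.000977). With all libraries it passed in DESeq2's Wald test (adjusted p = 0.0359) and in limma-voom (adjusted p = 0.0283). Over the 14 alternatives its adjusted p ranged from 0.000977 to 0.219. The GDF15 receptor Gfral was not analysed here, and its co-receptor Ret ranged over 71 to 133 counts in NTG, and over 131 to 147 in mNrf2-TG (Log2FC 0.34 ± 0.20 SE, adjusted p = 0.287).

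Mstn encodes myostatin, an inhibitor of muscle growth that is made mainly in skeletal muscle. In these hearts Mstn (Entrez gene 17700, chromosome 1, 53061640 to 53068079) was scarce, with 6, 11, 37 and 5 counts in NTG and 7, 4 and 3 in mNrf2-TG. NTG replicate 3 alone was above 11 counts, as it also stood out for Gdf15. The groups overlapped and were not distinguishable at this depth (Log2FC -1.67 ± 0.78 SE, adjusted p = 0.17), and without NTG replicate 3 the Log2FC was -0.65 (adjusted p = 0.419). Of 6 skeletal muscle markers, 3 were close to absent, with 1 to 8 counts of Mylpf, 0 to 4 of Tnnt3 and 1 to 10 of Actn3 per library. Myh1 and Myh4, at 157 to 646 counts, were called lower (2 of 6 markers, against 8.73% of all genes called lower). No marker of the list was called without mNrf2-TG replicate 17, and 1 was called lower without NTG replicate 2 or mNrf2-TG replicate 19. Myh2 had 3, 2, 68 and 46 counts in NTG replicates 1 to 4 and 86, 81 and 69 in mNrf2-TG replicates 17 to 19, in the other direction and not called (Log2FC 1.37 ± 0.71 SE, adjusted p = 0.213). Reads of these myosin genes could have been shared with those of the paralogous and far more abundant Myh6, which was not tested. Without NTG replicate 3, 1 marker of the list was higher and 2 lower. The summed list was 636 to 1241 in NTG, highest in NTG replicate 3, and 429 to 669 in mNrf2-TG, and its part in the Mstn values was not tested.

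The close paralog Gdf11 had 5 to 9 counts per library (Log2FC -0.02, adjusted p = 0.982). The Mstn to Gdf11 ratio ranged from 0.846 to 5.00 in NTG and from 0.474 to 1.36 in mNrf2-TG, with overlap (exact permutation test, two-sided, p = 0.229, adjusted p = 0.229). Of 8 genes for myostatin receptors and Smad mediators, 0 were called, against 17.2% of all genes called in either direction. Acvr2b, the main receptor of myostatin, ranged over 5 to 13 counts in NTG, and over 10 to 18 in mNrf2-TG (Log2FC 0.77 ± 0.36 SE, adjusted p = 0.176).

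Of 10 genes, namely the ligand Gdf11 and genes that process, hold or inhibit TGF-β family ligands, 2 rose and 1 fell. Over all genes 17.2% were called in either direction, and the median Log2FC of the list was -0.09. Tll2, a metalloprotease of the family that frees myostatin from its propeptide, had 5, 5, 6 and 5 counts in NTG and 23, 30 and 14 in mNrf2-TG. The groups did not overlap, with Log2FC 2.04 ± 0.37 SE (adjusted p = 0.00657), and the call held under all 14 alternatives. Ltbp3, which binds latent ligands to the matrix, rose from a mean of 248 ± 25.1 to 334 ± 19.9 in normalized counts (Log2FC 0.43 ± 0.10 SE, adjusted p = 0.0156). The call was lost without mNrf2-TG replicate 17 (0.0515) and mNrf2-TG replicate 18 (0.063). Furin, the protease that cleaves many pro-ligands, fell from a mean of 1142 ± 201 to 785 ± 56.2 in normalized counts (Log2FC -0.54 ± 0.12 SE, adjusted p = 0.0164), and its call was lost without mNrf2-TG replicate 17 (0.0662) and mNrf2-TG replicate 19 (0.0594).

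Fstl1 encodes a secreted glycoprotein of the follistatin-like family that is made by stromal cells and protects the injured heart. Fstl1 (Entrez gene 14314, chromosome 16, 37776873 to 37836514) had 712, 908, 1006 and 860 counts in NTG and 953, 1065 and 1136 in mNrf2-TG. After normalization NTG replicate 3, at 1038, lay among the mNrf2-TG libraries at 1026 to 1049.5, and the other NTG libraries were at 817 to 856. Fstl1 was not called over all libraries (Log2FC 0.23 ± 0.09 SE, adjusted p = 0.111) and passed without NTG replicate 3 (Log2FC 0.32, adjusted p = 0.00914). Of 6 fibroblast markers, 4 were higher and 0 lower, against 8.48% of all genes called higher. The number called higher was 5 without NTG replicate 3 and 2 without mNrf2-TG replicate 19. It was 3 without NTG replicate 1, NTG replicate 2 or mNrf2-TG replicate 17. The summed normalized count of these markers was 7645 to 9947 in NTG, highest in NTG replicate 3, and 10744 to 11293 in mNrf2-TG. Their part in the Fstl1 values was not tested. Dip2a, a receptor proposed for FSTL1, had 89 to 109 and 105 to 121 counts (Log2FC 0.11, adjusted p = 0.574). Its relative Dip2b rose from a mean of 287 ± 14 to 377 ± 13.8 in normalized counts (Log2FC 0.40 ± 0.08 SE, adjusted p = 0.00791), under all 14 alternatives.

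Igf1, which promotes physiological growth of the heart through the receptor Igf1r, did not differ detectably. Igf1 (Entrez gene 16000, chromosome 10, 87858265 to 87937042) had 112, 159, 137 and 124 counts in NTG and 140, 128 and 153 in mNrf2-TG. The groups overlapped, at 134 ± 9.57 and 139 ± 12.3 normalized counts (Log2FC 0.04 ± 0.11 SE, adjusted p = 0.819). Macrophages are a known source of Igf1, and of 5 macrophage markers 4 were higher and 0 lower, against 8.48% of all genes called higher. The summed normalized counts of these markers were 762 to 947 in NTG and 1374 to 1933 in mNrf2-TG. Their part in the Igf1 values was not tested. Igf1r ranged over 266 to 290 normalized counts in NTG, and over 248 to 308 in mNrf2-TG (Log2FC -0.02 ± 0.09 SE, adjusted p = 0.905).

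Of 12 ligand, binding protein and protease genes of the IGF system tested, 2 rose, 1 fell and 9 were not called, against 17.2% of all genes called in either direction. The median Log2FC of this list was -0.04. Igfbp5, a secreted IGF binding protein, had 1187, 1337, 1324 and 1032 counts in NTG and 2279, 2017 and 2214 in mNrf2-TG. All mNrf2-TG libraries were above all NTG libraries, and Igfbp5 rose with Log2FC 0.79 ± 0.11 SE (adjusted p = 0.00204). Stc1, a stanniocalcin that inhibits the protease PAPP-A and so limits the release of IGF, had 71, 71, 66 and 65 counts in NTG and 27, 26 and 35 in mNrf2-TG. It fell from a mean of 69.6 ± 8.22 to 28.8 ± 3.08 in normalized counts (Log2FC -1.26 ± 0.17 SE, adjusted p = 0.00149). Igfbp5 and Stc1 were called under all 14 alternatives. Igfbp4, a binding protein cleaved by PAPP-A, rose by less, from 510 ± 27.7 to 610 ± 24.4 normalized counts (Log2FC 0.26, adjusted p = 0.0373). The call of Igfbp4 was lost without NTG replicate 1 (0.0904), NTG replicate 2 (0.0856), mNrf2-TG replicate 17 (0.0645), mNrf2-TG replicate 18 (0.114) or mNrf2-TG replicate 19 (0.0924).

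Of 6 genes for IGF, insulin and growth hormone receptors and for adaptors, 1 fell and 0 rose. Over all genes 17.2% were called in either direction. The gene that fell was an adaptor, and the receptors on the list were not called. In DESeq2's Wald test 2 of the 6 fell. Irs1, the adaptor that links the IGF and insulin receptors to PI3 kinase, had 350, 432, 572 and 637 counts in NTG and 263, 330 and 291 in mNrf2-TG. The groups did not overlap after normalization, with Log2FC -0.79 ± 0.18 SE (adjusted p = 0.0154). The call was lost without mNrf2-TG replicate 17 (0.0606) and without mNrf2-TG replicate 19 (0.0599).

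Nrg1 encodes neuregulin-1, which endothelial and endocardial cells present to ErbB4 and ErbB2 on cardiomyocytes. Nrg1 (Entrez gene 211323, chromosome 8, 31814551 to 32884029) was at the limit of detection, with 0, 0, 4 and 6 counts in NTG and 0, 4 and 4 in mNrf2-TG. The summed counts were 10 in NTG (exact Poisson 95% interval 4.80 to 18.4) and 8 in mNrf2-TG (3.45 to 15.8), and these intervals cover counting error only. A difference was not detectable at this depth.

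The receptors of neuregulin were measured better than the ligand. Erbb2, the partner without a ligand of its own, had 58, 67, 64 and 62 counts in NTG and 90, 92 and 86 in mNrf2-TG. Erbb2 rose from a mean of 63.7 ± 3.14 to 88.5 ± 9.57 in normalized counts (Log2FC 0.47 ± 0.13 SE, adjusted p = 0.0332). The call was lost with DESeq2's Wald test (adjusted p = 0.0794) and without NTG replicate 1 (0.0595), NTG replicate 2 (0.0818), NTG replicate 4 (0.0628), mNrf2-TG replicate 17 (0.121) or mNrf2-TG replicate 18 (0.0952). Erbb3, a neuregulin receptor found mainly in cells other than cardiomyocytes, rose from a mean of 89.4 ± 7.72 to 127 ± 22.8 in normalized counts (Log2FC 0.50 ± 0.14 SE, adjusted p = 0.0381). Its call was lost without NTG replicate 1 (0.0735), NTG replicate 2 (0.081), NTG replicate 4 (0.079), mNrf2-TG replicate 17 (0.143) or mNrf2-TG replicate 18 (0.0595). Erbb4, the main neuregulin receptor of cardiomyocytes, was at 58.6 ± 13.7 and 76.1 ± 9.39 normalized counts, with overlap (Log2FC 0.38 ± 0.19 SE, adjusted p = 0.199), and passed without NTG replicate 3 (0.0457).

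Both of the other genes that passed on this list of receptors and shedding proteases are proteases implicated in neuregulin cleavage. Adam19 rose from a mean of 261 ± 46.9 to 374 ± 57.1 in normalized counts (Log2FC 0.52 ± 0.15 SE, adjusted p = 0.0394). Its call was lost without NTG replicate 1 (0.0933), NTG replicate 2 (0.0856), mNrf2-TG replicate 17 (0.0952) or mNrf2-TG replicate 18 (0.145). Bace1 rose from a mean of 427 ± 29.1 to 536 ± 35.5 in normalized counts (Log2FC 0.33 ± 0.08 SE, adjusted p = 0.0235), and the call was lost without NTG replicate 2 (0.0648), mNrf2-TG replicate 17 (0.0896) or mNrf2-TG replicate 18 (0.0811). In total 4 of 8 genes on this list were higher and 0 lower, against 8.48% of all genes tested that were called higher. This count rests on single libraries, as it was 0 of 8 without NTG replicate 2, without mNrf2-TG replicate 17 or without mNrf2-TG replicate 18, 1 without NTG replicate 1, 2 without NTG replicate 4 and 5 without NTG replicate 3. These counts were added after the data were seen. Of the 7 other neuregulin and EGF family ligands tested, 0 were called by edgeR, against 17.2% of all genes called in either direction.

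Across all pathway lists, 92 of 99 genes were tested, and 12 were higher and 8 lower, 21.7% against the 17.2% over all genes. Of the 20 called, 7 passed under all 14 alternatives, namely Fgf16, Fgfrl1, Tll2, Dip2b, Igfbp5, Stc1 and Flt1. The number called was 13 without NTG replicate 1, 8 without mNrf2-TG replicate 17 and 12 without mNrf2-TG replicate 18. In DESeq2's Wald test 10 were higher and 10 lower.

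**Figure D3:**
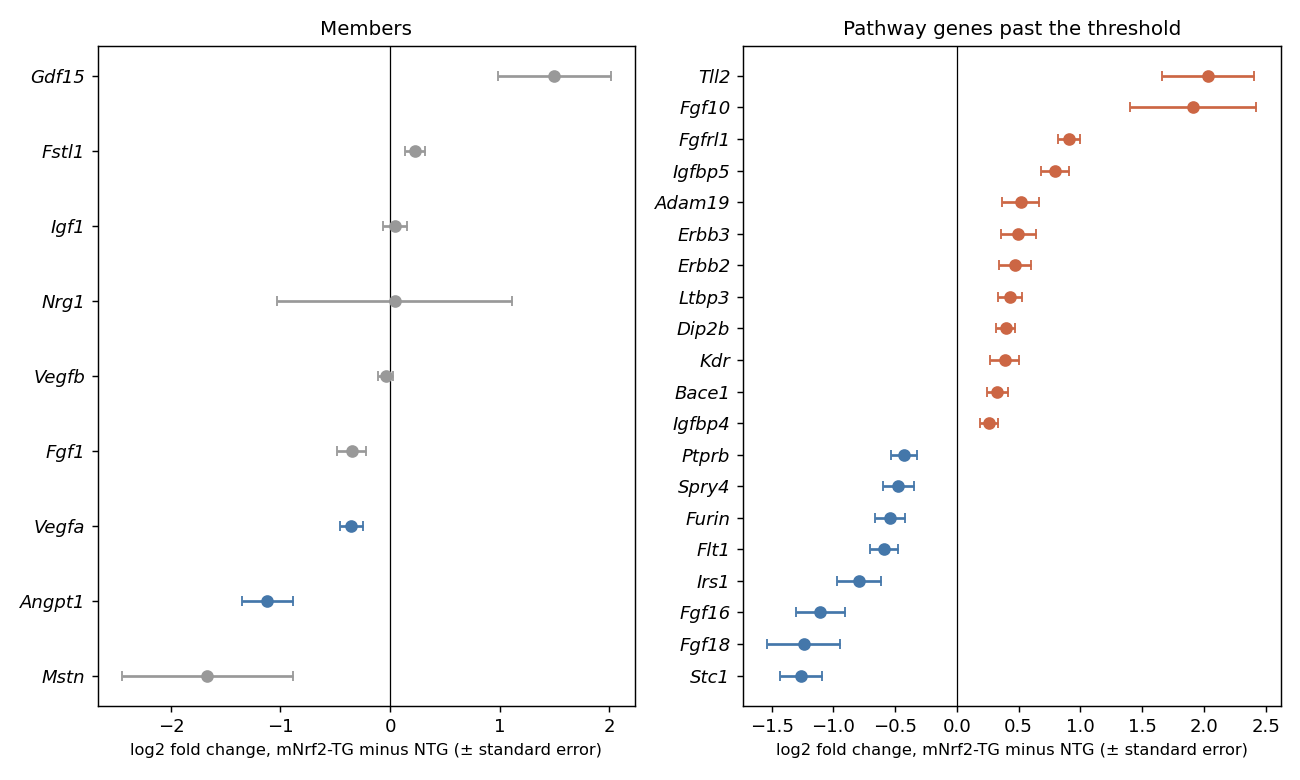
Log2FC (horizontal axes, mNrf2-TG over NTG) with its standard error for the 9 growth factor genes (left) and the 20 pathway genes with an adjusted p under 0.05 (right). Orange marks genes called higher, blue genes called lower and grey genes not called, and the ligands Gdf15, Mstn and Nrg1 have the widest error bars.

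Levels of the growth factor genes were compared per length, as TMM-scaled CPM per kilobase of annotated exon. In NTG, Vegfb had the highest level of the 9, at 221 ± 4.86. Vegfa (79.8 ± 9.61) and Fgf1 (72.0 ± 13.5) followed and overlapped. Fstl1 (23.9 ± 2.84) and Angpt1 (13.1 ± 2.23) came next, each separate from its neighbours. Igf1 (1.80 ± 0.128), Gdf15 (1.16 ± 1.10) and Mstn (0.736 ± 0.765) overlapped one after the other, and Nrg1 was last at 0.0324 ± 0.0387. The overlaps of Gdf15 rest on NTG replicate 3, in which Gdf15 was at 2.81 and Mstn at 1.87. Without it, Gdf15 was at 0.610 ± 0.118 and Mstn at 0.357 ± 0.122 (n = 3), the ranges of Igf1, Gdf15 and Mstn were separate, and all 9 genes kept their rank. In mNrf2-TG, Gdf15 ranged from 2.21 to 4.32 and Igf1 from 1.69 to 2.02, so these neighbours changed places, and the other genes kept their rank. The order in NTG was the same with the longest transcript as the length.

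**Figure D4:**
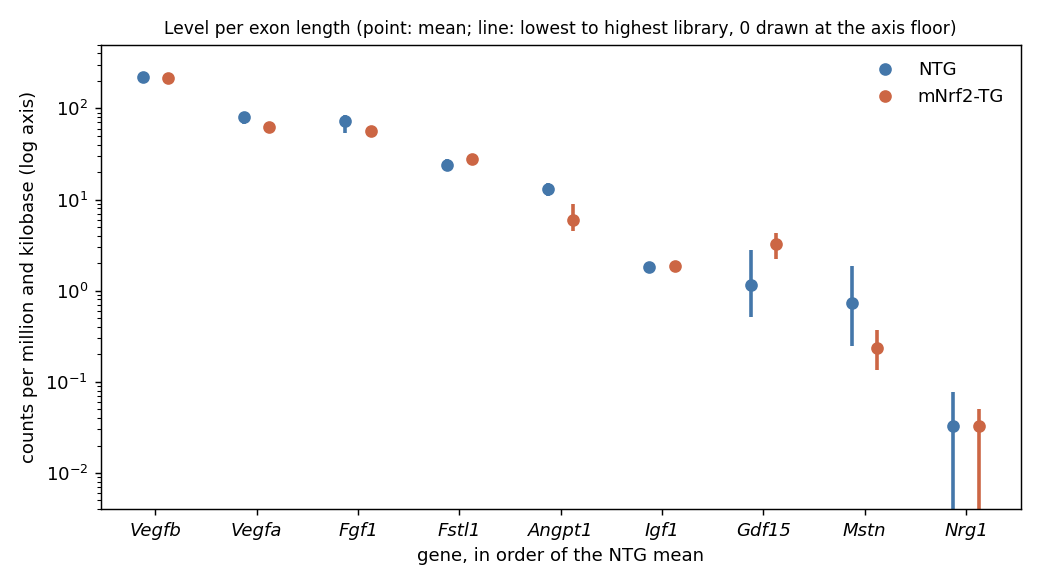
Level of each growth factor gene per exon length, in CPM per kilobase on a log axis, with the mean as a point and the lowest to highest library as a line, for 4 NTG (blue) and 3 mNrf2-TG (orange) libraries. The 9 genes span from 221 for Vegfb to 0.0324 for Nrg1 in NTG, and the mean of Gdf15 exceeds that of Igf1 in mNrf2-TG but not in NTG.

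The weight of single libraries was assessed by leaving out each in turn. NTG replicate 3 set the outcome for Gdf15, Fgf1 and Fstl1, none of which passed in any other such fit. Further genes of the lists stood out in NTG replicate 3, chosen after their values were seen. Hbegf, an EGF family ligand induced by stress, had 1095 counts there and 133 to 293 in the other NTG libraries. Fgf7 had 93 counts there and 9 to 26 in the others, and Fgf6 had 23 counts there and 1 to 3 in the others. Hbegf was not called between the groups (Log2FC -0.80 ± 0.61 SE, adjusted p = 0.401).

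**Figure D5:**
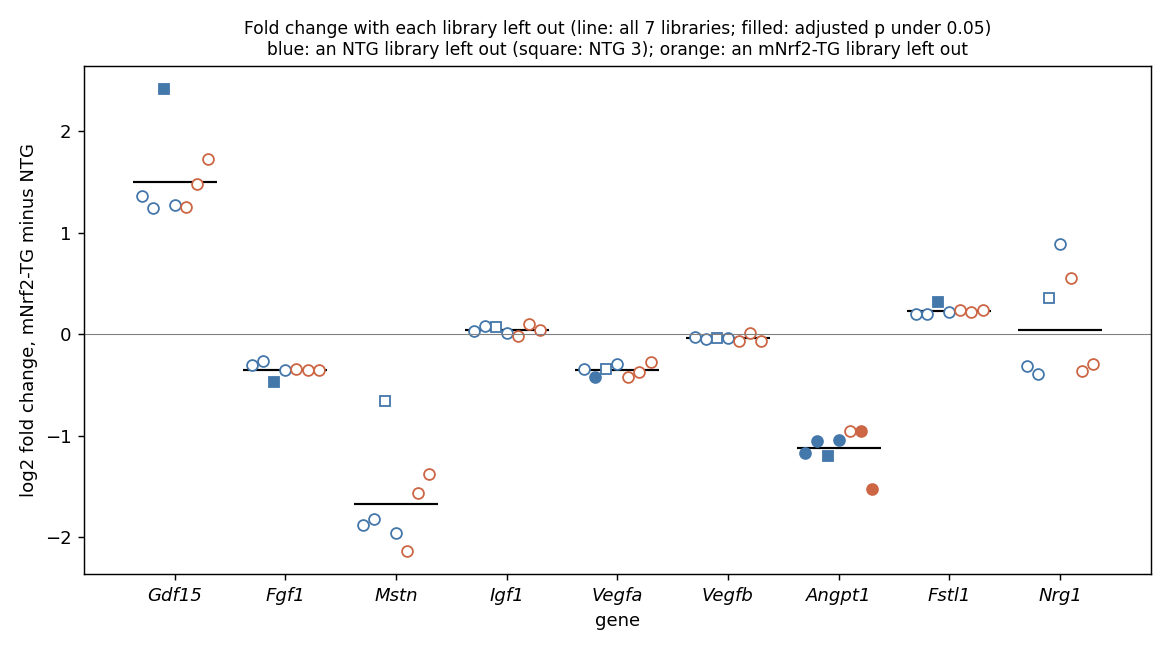
Log2FC of each growth factor gene (vertical axis) with 1 library left out, where a blue symbol stands for an NTG library left out (a square for NTG replicate 3), an orange symbol for an mNrf2-TG library, and a line for all 7 libraries. Filled symbols have an adjusted p under 0.05, as for Gdf15, Fgf1 and Fstl1 without NTG replicate 3 and for Angpt1 in 6 of 7 fits.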

How the data were processed

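Messenger RNA of 7 hearts, selected with oligo(dT), was read in 50-base single-end runs after stranded library preparation. The submitters' notes name Novoalign 2.08.01, DESeq2 1.32.0, mm10 and GRCm38, while the methods also name hg19 for the index. The counting program and use of strand are not given in the sources used here. The authors deposited read counts per gene without normalization, which were analysed here. Their DESeq2 rlog values and their comparison of the groups (fold changes and p-values) were not used, except for gene identifiers and symbols. Of 14665 entries, 24 that repeat an Entrez gene were removed. The remaining 14641 genes were filtered to the 14637 with a summed count above 1.

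Groups came from the genotype labels. Each library is 1 mouse, so p-values measure the spread between mice. Counts were tested with edgeR 4.0.16 (R 4.3.3, TMM, quasi-likelihood, no covariates) and the Benjamini-Hochberg adjustment over all genes. Standard errors (SE) were derived from the Log2FC and its F statistic. Ratios of 3 ligand pairs, with 0.5 added to each count, were tested by exact permutation over the 35 assignments of libraries to groups, on the absolute difference of mean log2 ratios. The test was also tested on simulated data. Positions and exon lengths are from GENCODE M21 (GRCm38), and upstream sequences from RefSeq (GRCm38.p6), whose table matched 7 of the 10 genes. Library totals cover listed genes only, and a few counts per library cannot show moderate changes.

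The growth factors, gene lists and tests were chosen with earlier results of these data known. Genes named are the 10 members, all pathway genes at an adjusted p under 0.05, and their main receptors and ratio partners. Hbegf, Fgf6 and Fgf7 were added after their values were seen. Alternatives were DESeq2 1.42.0 (Wald test), limma 3.58.1 (voom), edgeR with size factors of DESeq2, scaling by library total only, filterByExpr, at least 10 counts in every library of 1 group, no filter, and leaving out each library in turn. Tables and plots were made in Python 3.11.15 (pandas 2.3.3, matplotlib 3.10.9), and exact tests with numpy 2.4.6.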

Additional observations from a re-analysis of the deposited data

Results flagged for a closer look

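Among the 39 genes named by rule and the 3 ratios, 3 values in the NTG group were separated from the others by more than Dixon's 95% critical value for 4 samples, and all 3 belong to NTG replicate 3. Chance alone marks about 1 in 20 groups. Gdf15 was at 39.2 normalized counts in NTG replicate 3 and at 7.20 to 10.3 in the other NTG libraries, a gap of 0.902 of the range. Mstn was at 38.2 there and at 4.98 to 9.90 in the others, a gap of 0.852. Furin was at 1441 there and at 1016 to 1076 in the others, a gap of 0.86. Without NTG replicate 3 the Log2FC was 2.42 for Gdf15, -0.65 for Mstn and -0.41 for Furin.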

How the results depend on the processing

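No called value changed sign under any of the alternatives. Under the 14 alternatives the Log2FC of Nfe2l2 stayed between 3.22 and 3.50. The number of growth factor genes called was 2, against 3 with DESeq2's Wald test and with limma-voom, 1 with the library total alone and 1 with filterByExpr, and 0 to 4 with each library left out in turn. Pathway genes called numbered 20, between 19 and 20 under the other settings, and 8 to 21 with each library left out. Over all genes the calls, 2519 with all libraries, ranged from 1373 without mNrf2-TG replicate 17 to 2950 without NTG replicate 3. The ratios of ligands did not pass the threshold with all 7 libraries. There, 1 ratio alone at the lowest possible p could not pass the threshold after adjustment. With 1 library left out, too few assignments of libraries to groups remain for the exact test to pass it. Those fits therefore give the size of the difference only. Over the settings the log2 differences were 0.58 to 1.46 for Angpt2 to Angpt1, -0.39 to -0.20 for Vegfa to Vegfb and -1.59 to -0.62 for Mstn to Gdf11. Mstn, Nrg1, Fgf10, Gdf11 and Fgfr4 were removed by both stricter filters, and DESeq2 gave no adjusted p for Nrg1 and Fgfr4. The order of levels per length kept all 9 ranks, also without NTG replicate 3, an alternative chosen after seeing the data, as were the counts of the marker and ERBB lists under each setting. No paired analysis was possible because the groups share no replicate numbers.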
